A study of Homo sapiens with 26 samples.

Results

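The clustered histone genes were taken as every gene whose symbol begins with HIST1H, HIST2H, HIST3H or HIST4H, the older names of the human histone gene clusters, in any of the 3 count tables. The rule found 63 of the 22690 gene symbols: 6 for the linker histone H1, and 14 for H2A, 19 for H2B, 12 for H3 and 12 for H4, the core histones around which DNA is wound. No measured value entered the rule. The genes lie on chromosome 6 (the HIST1 names), on chromosome 1 (HIST2 and HIST3) and on chromosome 12 (HIST4H4).

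Most of these genes are replication-dependent. Their transcription rises in S phase, when newly copied DNA needs histones, and their mRNAs do not end in a poly(A) tail but in a short conserved stem-loop, which the stem-loop binding protein SLBP holds during processing, export and translation. Some of them also give longer, polyadenylated transcripts in cells that have left the cell cycle. A library made from total RNA, as here, does not select for poly(A) and so records both forms.

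All cells came from human embryonic stem cells, and all genotypes are labelled wild type. Macrophages (MF) of the hES2 line and cardiomyocytes (CM) of the ESI17 line were grown with or without FB cells, an abbreviation that the labels leave unexplained, in Biowires, which are engineered cardiac microtissues. Macrophages were taken on day 14 from Biowires of MF alone, FB+MF and CM+FB+MF, with 3 libraries each. Digested control macrophages had the same 3 combinations and 3 libraries each. Their label gives a 40 min digestion in place of a culture day. Cardiomyocytes came from day 3 Biowires of CM+FB or of CM+FB+MF, with 4 libraries each. Every sample shares the same labelled protocol: enzymes with flavopiridol, an inhibitor of transcription, for 40 min, then staining for CD14 and CD45 and sorting into lysis buffer. No label says that the replicates of a group were grown separately. A p-value here is therefore set against a spread that may be technical. In RNA from many cells, fewer cells that make a transcript and less of it per cell cannot be told apart.

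The stem-loop that gives these mRNAs their 3′ end is shown for some of the members named below, called or not, because it is what sets the family apart from polyadenylated mRNA. The sequences are from GENCODE v29 transcripts (GRCh38), written as DNA from 5′ to 3′, and the capitals mark the 16-base stem-loop.
HIST1H3G: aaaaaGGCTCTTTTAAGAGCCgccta
HIST1H2BG: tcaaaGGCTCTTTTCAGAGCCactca
HIST1H2BC: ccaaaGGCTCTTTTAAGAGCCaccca
HIST2H2BE: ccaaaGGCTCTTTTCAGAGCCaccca
HIST3H2A: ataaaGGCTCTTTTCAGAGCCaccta
HIST1H4E: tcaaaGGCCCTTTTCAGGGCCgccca
HIST4H4: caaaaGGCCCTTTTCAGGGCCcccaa
HIST1H3G and HIST1H2BC carry the same 16 letters, and HIST1H2BG, HIST2H2BE and HIST3H2A share another version that differs from it in the loop. The pattern was searched as a fixed string of 16 positions. Either pyrimidine or either purine was allowed at some paired positions, and A, C or T at some loop positions. It was found in transcripts of 27 of the 63 members, and in 105 of 83057 (0.126%) protein-coding transcripts of other genes. The members are counted as genes and the others as transcripts. Coding transcripts of members were searched only after the stop codon, and those of other genes over their whole length. For 31 members the annotated transcripts all end within 25 bases of the stop codon, so that the loop may lie beyond the annotated end, and 20 members have an annotated transcript that runs more than 100 bases past the loop.

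Promoters are shown for 4 members that represent the patterns reported for cardiomyocytes and macrophages: HIST1H3G, the member with the smallest p in cardiomyocytes, HIST1H2AM and HIST1H2BC, each of which rose there with its divergent neighbour, and HIST2H2BE, which was not called in cardiomyocytes and fell in Biowire macrophages. Each is the 250 bases before the annotated start in RefSeq (GRCh38.p14, minus strand), and capitals mark the CCAAT box, the octamer ATTTGCAT and the TATA box TATAAA on either strand.
HIST1H3G, chr6:26271414-26271663: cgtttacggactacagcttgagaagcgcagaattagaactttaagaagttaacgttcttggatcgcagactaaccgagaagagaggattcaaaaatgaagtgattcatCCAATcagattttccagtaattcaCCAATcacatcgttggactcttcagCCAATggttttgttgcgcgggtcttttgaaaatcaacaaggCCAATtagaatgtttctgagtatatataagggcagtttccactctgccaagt
HIST1H2AM, chr6:27893186-27893435: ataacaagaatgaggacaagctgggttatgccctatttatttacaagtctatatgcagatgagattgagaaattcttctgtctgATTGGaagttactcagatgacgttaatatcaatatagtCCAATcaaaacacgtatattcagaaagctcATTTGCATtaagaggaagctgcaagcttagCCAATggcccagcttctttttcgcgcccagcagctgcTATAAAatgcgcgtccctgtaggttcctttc
HIST1H2BC, chr6:26123927-26124176: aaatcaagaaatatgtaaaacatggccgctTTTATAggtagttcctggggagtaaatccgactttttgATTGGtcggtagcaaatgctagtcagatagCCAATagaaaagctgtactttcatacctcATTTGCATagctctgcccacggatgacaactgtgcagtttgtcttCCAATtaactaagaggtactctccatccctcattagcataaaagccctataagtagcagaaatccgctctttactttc
HIST2H2BE, chr1:149886683-149886932: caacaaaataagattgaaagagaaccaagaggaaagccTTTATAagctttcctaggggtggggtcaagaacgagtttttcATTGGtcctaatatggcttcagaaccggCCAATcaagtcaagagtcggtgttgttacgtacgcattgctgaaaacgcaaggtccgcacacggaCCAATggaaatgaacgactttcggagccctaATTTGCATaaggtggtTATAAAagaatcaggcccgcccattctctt
The HIST1H3G window holds 4 CCAAT boxes, at -142, -118, -93 and -52 from the start, and no TATAAA. Only these exact letters were searched, so a TATA box of other letters would not be marked or counted. In HIST2H2BE the octamer begins at -46 and TATAAA at -30, and in HIST1H2AM they begin at -98 and -31. The motifs were counted in the full RefSeq windows of 300 bases, which also hold the first bases after the start that are not printed. Over the 56 members with such a window, TATAAA was found in 36 (64.3%), CCAAT in 49 (87.5%) and the octamer in 24 (42.9%). A match on either strand at any position counted, and windows of divergent neighbours overlap, so the same motif can count for both genes. The only TATAAA of HIST1H2BC, for example, is on the opposite strand at -220. Over all 27305 RefSeq windows of 300 bases the shares were 12%, 35.7% and 1.8%. A match of letters is a description and not evidence that a factor binds.

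Library totals ran from 12604684 to 30936910 counts in cardiomyocytes, from 6983800 to 13665322 in Biowire macrophages and from 10132651 to 12717157 in digested macrophages. The members together took 16201 to 35225, 1382 to 4551 and 3216 to 4739 of these counts, so single members rest on far fewer counts in macrophages. Low counts kept many members out of the tests: 59 of 63 were tested in cardiomyocytes, 41 of the 62 listed for Biowire macrophages and 47 of the 62 listed for digested macrophages. The labelled cell types carried their markers. TNNT2, cardiac troponin T, stood at 7241 ± 445 CPM (SD, n = 4) in CM+FB cardiomyocytes, where CPM is the count scaled to the library total, and CD68, a lysosomal protein of macrophages, at 6012 ± 309 CPM (SD, n = 3) in Biowire MF. All differences below were tested with edgeR's quasi-likelihood test over all genes of a table, with Benjamini-Hochberg adjustment, and a gene is called at an adjusted p under 0.05.

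The summed level of the members was highest in the day 3 cardiomyocytes. Their 4 CM+FB libraries had 777, 819, 635 and 750 CPM and their 4 CM+FB+MF libraries 1200, 1032, 1006 and 1285 CPM. The macrophage libraries lay between 191 and 386 CPM. Cell type, line, day and table differ together between these sets, so they are set side by side without a test. The members with a described polyadenylated form (HIST1H1C, HIST1H2AC, HIST1H2BC, HIST1H2BD, HIST1H2BJ, HIST1H2BK, HIST2H2BE and HIST4H4) made up 38.8% ± 0.252 of the sum in CM+FB cardiomyocytes and 34.1% ± 0.839 in CM+FB+MF cardiomyocytes (SD, n = 4). In macrophages their share was between 39.0% ± 1.22 (digested CM+FB+MF) and 47.9% ± 3.82 (Biowire FB+MF; SD, n = 3).

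**Figure D1:**
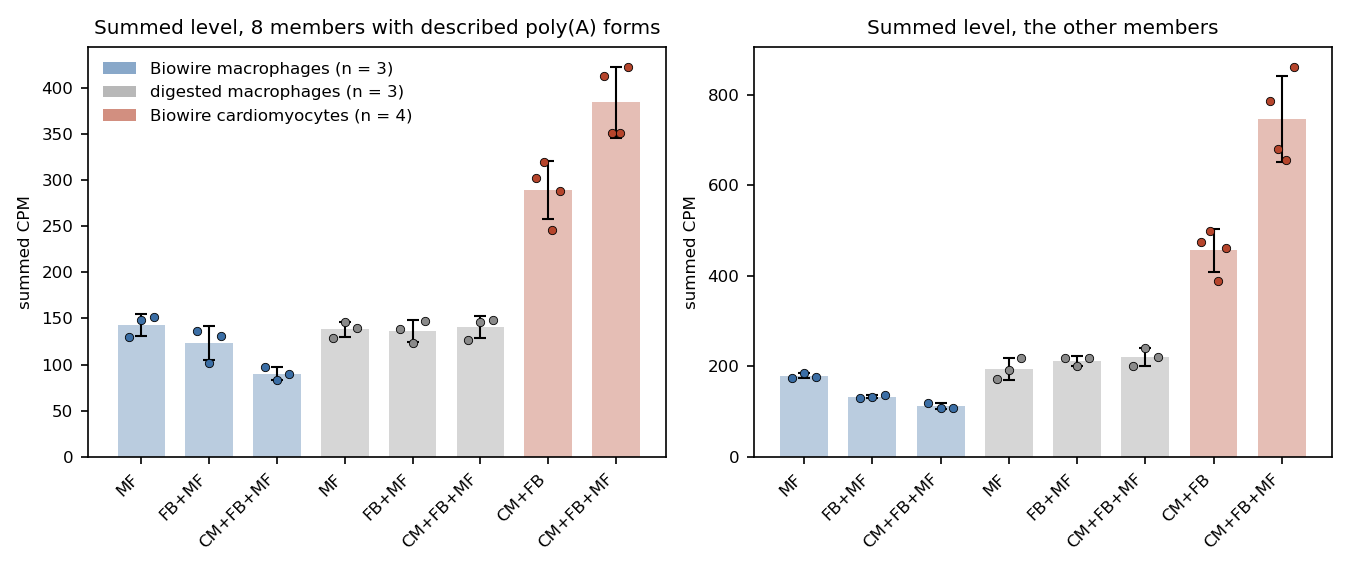
Summed CPM of the 8 members with described poly(A) forms (left) and of the other members (right) in each of the 8 groups. Points are libraries, bars are group means and error bars are SD, with 3 libraries in macrophage groups and 4 in cardiomyocyte groups. The CM+FB+MF cardiomyocytes stand above CM+FB in both panels, and among Biowire macrophages CM+FB+MF is lowest in both.

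Levels were set side by side per kilobase of coding sequence. This takes no account of transcripts that run past it, as in HIST2H2BE, whose annotated transcript has 2194 bases and its coding sequence 381, so the order below holds for coding length alone. HIST1H2BK had the highest such value in CM+FB cardiomyocytes, at 129 ± 17.7 CPM per kilobase (SD, n = 4), in Biowire MF, at 129 ± 18, and in digested MF, at 156 ± 4.28 (SD, n = 3). HIST1H2BK encodes an H2B. In CM+FB cardiomyocytes HIST1H1E, a linker histone, followed at 122 ± 14.9, then HIST2H2BE at 118 ± 6.22, HIST1H1C at 118 ± 17.2 and HIST2H2AC at 112 ± 9.18 CPM per kilobase, and these neighbours do not differ beyond their spread. In Biowire MF the order was HIST1H2BK, HIST1H1E at 97.0 ± 15.0, HIST1H2BC at 83.4 ± 14.8 and, well below, HIST2H2AC at 42.1 ± 8.08 and HIST1H1C at 36.8 ± 3.88 CPM per kilobase. In digested MF HIST1H1E stood at 82.4 ± 8.29 and HIST1H4E, an H4 gene, at 53.0 ± 4.73 CPM per kilobase, and HIST1H4E and HIST2H2AC, at 46.4 ± 1.46, stood apart by more than 1 SD of either. Several members of the replicative kind were not detected in Biowire MF: HIST1H1A, HIST1H2BB, HIST1H3B, HIST1H3G and HIST1H4J had 0 counts in all 3 libraries. Of these, HIST1H1A and HIST1H3B were also at 0 in Biowire FB+MF, and HIST1H2BB in Biowire CM+FB+MF. In digested MF, HIST1H1A and HIST1H2BB were at 0 as well.

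**Figure D2:**
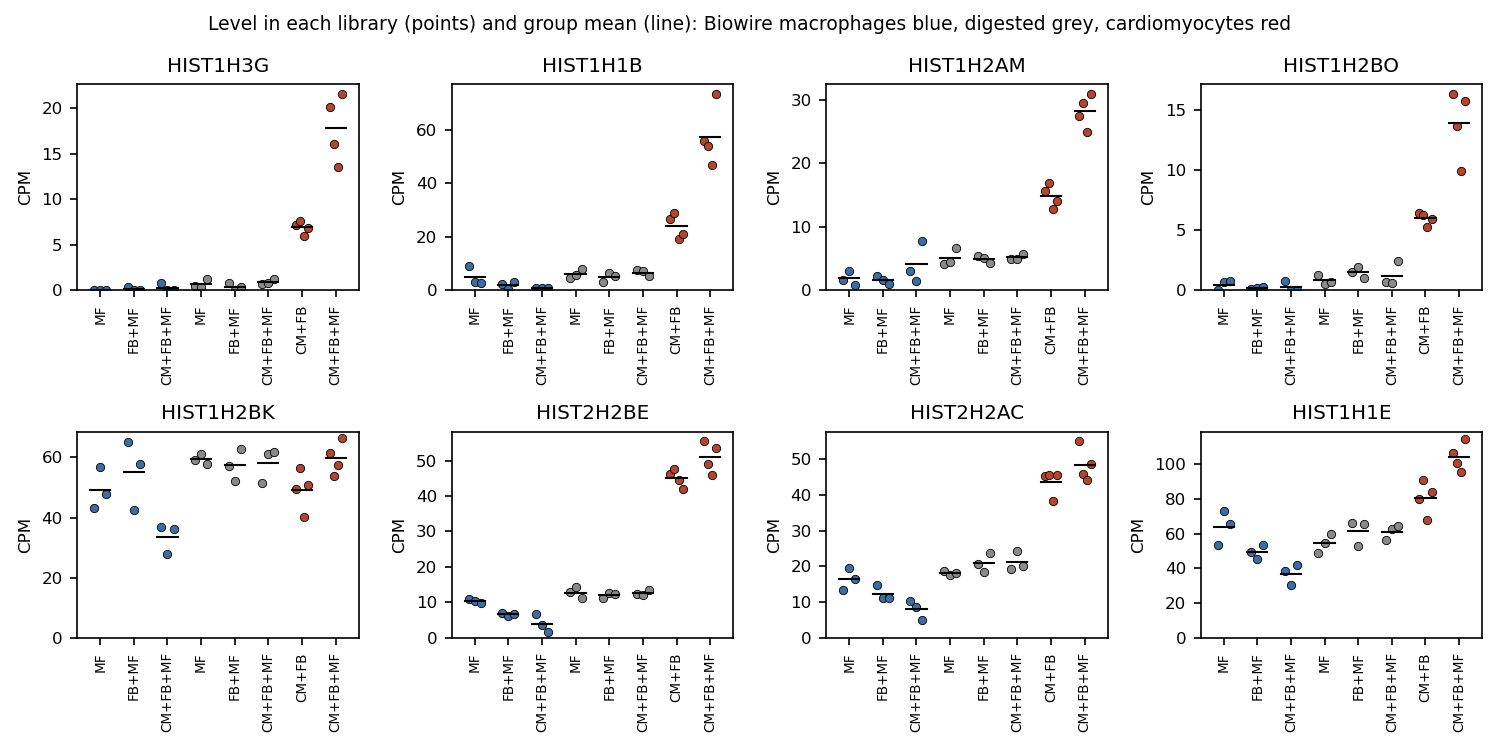
Level in CPM of 8 members in every library (points) with the group mean (line), for Biowire macrophages (blue), digested macrophages (grey) and cardiomyocytes (red). HIST1H3G, HIST1H1B, HIST1H2AM and HIST1H2BO (top row) are high mainly in cardiomyocytes and do not overlap between the 2 cardiomyocyte groups, while HIST1H2BK has similar levels in most groups and is lowest in Biowire CM+FB+MF macrophages.

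The cardiomyocyte comparison asked what differs in day 3 cardiomyocytes when macrophages are part of the tissue. Clustered histone genes were higher with macrophages: 39 of the 59 tested were called higher and 0 lower, where 6.79% of all 16046 genes tested were called higher and 5.88% lower, 12.7% in either direction. All 59 fold changes were positive, from 0.01 to 1.48 on the log2 scale, with a median of 0.82 against 0.02 over all genes tested. The 2 groups did not overlap in CPM for 40 of the 59 tested members, and for 36 of the 39 called, where 17.6% of all genes tested did not overlap, 10% with the group with macrophages higher. Of the 39 calls, 28 held under every setting tried. The summed level was 745 ± 78.5 CPM without and 1131 ± 134 CPM with macrophages (SD, n = 4), a ratio of 1.52. By class, 5 of 5 tested H1 genes were called higher, as were 10 of 14 for H2A, 11 of 17 for H2B, 9 of 11 for H3 and 4 of 12 for H4. The ratio of the summed level was 2.07 for H3, 1.55 for H2A, 1.45 for H1, 1.45 for H2B and 1.36 for H4.

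HIST1H3G, an H3 gene, had the smallest p. Its level was 7.21, 7.61, 5.94 and 6.82 CPM in the CM+FB libraries and 20.1, 16, 13.5 and 21.5 CPM in the CM+FB+MF libraries. The lowest library with macrophages lay above the highest without, and the log2 fold change was 1.34 ± 0.16 (SE; adjusted p = 6.52e-05). HIST1H2AM, an H2A gene, had 15.5, 16.9, 12.8 and 14.0 CPM without and 27.4, 29.4, 24.8 and 30.9 CPM with macrophages. Again the groups did not overlap, and the log2 fold change was 0.90 ± 0.11 (adjusted p = 7.76e-05). HIST1H1B, a linker histone of dividing cells, had 26.6, 28.8, 19.0 and 21.1 CPM without and 55.7, 53.9, 46.8 and 73.3 CPM with macrophages. CM+FB+MF replicate 4 was the highest, and the log2 fold change was 1.24 ± 0.15 (adjusted p = 0.000101).

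Among H2B genes, HIST1H2BI had 3.68, 4.96, 2.97 and 3.34 CPM without and 9.71, 8.84, 9.47 and 10.8 CPM with macrophages. Every library with macrophages lay above every library without, with a log2 fold change of 1.35 ± 0.17 (adjusted p = 0.000102). HIST1H2BO, another H2B gene, had 6.48, 6.32, 5.27 and 5.91 CPM without and 16.3, 13.7, 9.92 and 15.8 CPM with macrophages. The groups did not overlap (log2 fold change 1.20 ± 0.16, adjusted p = 0.000221). HIST1H2AJ, an H2A gene, had 8.92, 9.64, 6.33 and 7.08 CPM without and 16.5, 16.8, 19.2 and 21.9 CPM with macrophages. Its groups were also apart (log2 fold change 1.20 ± 0.15, adjusted p = 0.000111). Large fold changes were also called at lower levels: 1.48 ± 0.25 for HIST1H2BB (1.55 to 4.45 CPM in the group means), 1.36 ± 0.25 for HIST1H3C (4.51 to 11.8 CPM) and 1.35 ± 0.22 for HIST1H2AI (2.47 to 6.43 CPM), each on the log2 scale. Other H3 genes called included HIST1H3B (1.19 ± 0.16), HIST1H3J (1.15 ± 0.25), HIST1H3H (1.08 ± 0.30), HIST1H3F (0.97 ± 0.19) and HIST1H3A (0.68 ± 0.18). Further H1 genes called were HIST1H1D (0.84 ± 0.22) and HIST1H1A (0.55 ± 0.13). HIST1H3H, HIST1H3A and HIST1H1D each lost the call without some single library, CM+FB replicate 3 or 4 and CM+FB+MF replicate 4 among them. Of the H4 genes HIST1H4C was called at 0.65 ± 0.13 (adjusted p = 0.00372).

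Of the 8 members with the highest mean level in cardiomyocytes, HIST1H1B had the largest fold change, given above, and 4 others were called with smaller ones. HIST1H1E had 79.8, 91.0, 67.6 and 84.3 CPM without and 106, 101, 95.6 and 115 CPM with macrophages. The groups did not overlap, by a small margin, and the log2 fold change was 0.35 ± 0.09 (adjusted p = 0.0183). HIST1H1C, a linker histone with a polyadenylated form, had 78.7, 89.6, 63.4 and 72.2 CPM without and 112, 90.9, 87.8 and 104 CPM with macrophages. Here the groups overlapped (log2 fold change 0.36 ± 0.11, adjusted p = 0.0391). HIST1H2BC had 40.0, 42.5, 31.2 and 39.1 CPM without and 62.9, 58.1, 55.5 and 62.1 CPM with macrophages. Its groups did not overlap (log2 fold change 0.63 ± 0.09, adjusted p = 0.000427). HIST1H2AC had 42.7, 43.3, 32.5 and 39.5 CPM without and 55.3, 46.1, 48.4 and 59.3 CPM with macrophages, a log2 fold change of 0.39 ± 0.11 (adjusted p = 0.0298). The calls of HIST1H1E, HIST1H1C and HIST1H2AC were each lost without some single library, among them CM+FB replicate 3 and CM+FB+MF replicate 4.

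HIST1H2BK, HIST2H2BE, HIST2H2AC and HIST1H4E were not called. HIST1H2BK had 49.4, 56.6, 40.3 and 50.8 CPM without and 61.5, 53.8, 57.6 and 66.6 CPM with macrophages, a log2 fold change of 0.26 ± 0.10 (adjusted p = 0.117). HIST2H2BE had 46.2, 47.6, 44.6 and 42.1 CPM without and 55.5, 49.2, 45.9 and 53.5 CPM with macrophages (0.16 ± 0.08, adjusted p = 0.226). HIST2H2AC, its divergent H2A neighbour, had 45.3, 45.7, 38.4 and 45.7 CPM without and 55.3, 46.0, 44.3 and 48.7 CPM with macrophages (0.13 ± 0.09, adjusted p = 0.382). The libraries of the 2 groups overlapped for each of these 3 genes. HIST1H4E had 29.5, 29.3, 23.4 and 24.5 CPM without and 31.2, 27.0, 29.3 and 34.4 CPM with macrophages (0.17 ± 0.10, adjusted p = 0.358), and HIST1H4F, at 0.01 ± 0.21, had the smallest fold change of any member tested.

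**Figure D3:**
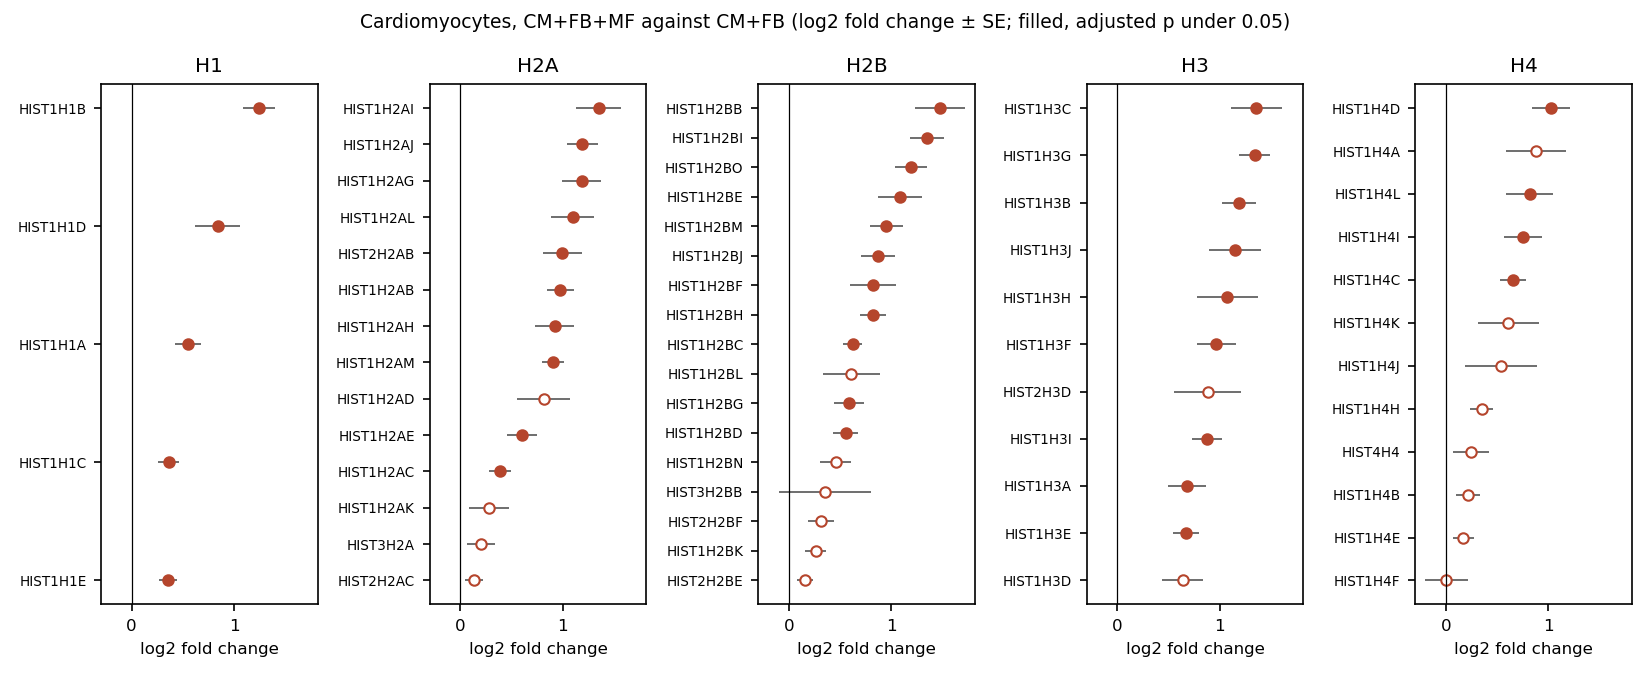
Log2 fold change (x axis, error bars SE) of each of the 59 tested members in cardiomyocytes, CM+FB+MF against CM+FB, by histone class. Filled circles have an adjusted p under 0.05. All points lie at or above 0, with HIST1H2BB at 1.48 the highest and HIST1H4F at 0.01 the lowest.

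By cluster, 38 of 51 tested HIST1 genes were called higher, with a median log2 fold change of 0.82, and so was 1 of 5 HIST2 genes, HIST2H2AB, at 1.00 ± 0.19 (adjusted p = 0.00333). Neither of the 2 HIST3 genes nor HIST4H4 was called. Of the 8 members with described polyadenylated forms 5 were called, with a median of 0.37, and of the 51 others 34 were called, with a median of 0.82. Among members with an annotated transcript more than 100 bases past the stem-loop 11 of 19 were called (median 0.59), and among the rest 28 of 40 (median 0.87). Members with the octamer in their promoter had 18 of 24 called (median 0.85) and those without it 17 of 30 (median 0.61). Apart from HIST1H3D, every member with the octamer is an H2A or H2B gene, so this split largely follows histone class. These splits are descriptions and no difference between the sides of a split was tested.

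Many H2A and H2B genes are arranged head to head and share the stretch between their starts. Of 10 such pairs with overlapping promoter windows, whose annotated starts lie 194 to 248 bases apart, both genes were called higher in 5, a single gene in 2 and neither in 3. Over all members tested, 39 of 59 were called higher. Members without a RefSeq window could not be paired. Among them was HIST1H2AH (0.92, called), which lies next to HIST1H2BK (0.26, not called). HIST1H2AM and HIST1H2BO, with 240 bases between them, had log2 fold changes of 0.90 and 1.20, HIST1H2AJ and HIST1H2BM 1.20 and 0.95, and HIST1H2AG and HIST1H2BJ 1.19 and 0.87. HIST1H2AC and HIST1H2BC had 0.39 and 0.63, and HIST1H2AE and HIST1H2BG 0.60 and 0.59. Neither gene was called in the pair HIST2H2AC and HIST2H2BE (0.13 and 0.16), the pair HIST3H2A and HIST3H2BB (0.20 and 0.35), or the pair HIST1H2AK and HIST1H2BN (0.28 and 0.46). Counts of some members are uncertain. HIST1H4J and HIST1H4K have identical coding sequences, and HIST1H2AD and HIST1H3D have the same annotated start, so reads may have been split or dropped between them. None of these 4 was called.

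Genes of the cell cycle were counted in the same comparison. Of 20 tested mitosis genes 20 were called higher, with a median log2 fold change of 1.12, among them MKI67, a nuclear marker of cycling cells (1.15 ± 0.08, adjusted p = 7.06e-07), TPX2, a spindle factor (1.10 ± 0.09, adjusted p = 2.17e-06), and PLK1, a mitotic kinase (1.48 ± 0.12, adjusted p = 3.45e-06). Of 24 DNA replication genes 13 were called higher, with a median of 0.36, among them TYMS, which makes thymidylate (0.97 ± 0.11, adjusted p = 4.08e-05), RRM2, a subunit of ribonucleotide reductase (0.85 ± 0.10, adjusted p = 7.84e-05), and PCNA, the sliding clamp (0.34 ± 0.08, adjusted p = 0.0094). The summed level of the mitosis list went from 288 ± 26.9 to 626 ± 29.3 CPM and that of the replication list from 658 ± 20.2 to 852 ± 34.2 CPM (SD, n = 4).

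Of 11 tested histone variants outside the clusters, most of them replication-independent, 3 were called higher: H2AFX, phosphorylated at DNA breaks and known to have a stem-loop mRNA as well as a polyadenylated form (0.68 ± 0.09), H2AFZ (0.45 ± 0.08) and CENPA, the centromeric H3 (1.34 ± 0.36). The H3.3 genes H3F3A (0.20 ± 0.16) and H3F3B (0.08 ± 0.08) were not called. Of 12 histone chaperones 3 were called higher, led by ASF1B at 0.96 ± 0.22 (adjusted p = 0.0113). Of 13 genes for histone mRNA transcription and processing 0 were called, and SLBP had a log2 fold change of 0.14 ± 0.10 (adjusted p = 0.471).

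Other measures moved with the same groups. Of 14 tested macrophage markers 13 were called higher in CM+FB+MF cardiomyocytes, among them CD14 (2.41 ± 0.45, adjusted p = 0.00296). Their sum was 6.38 to 8.81 CPM in CM+FB, where FCGR3A, C1QA and MS4A7 were at 0, and 35.8 to 91.0 CPM in CM+FB+MF. The sum over other RNAs without a poly(A) tail, such as the signal recognition particle RNAs, was 38964 to 45683 CPM in CM+FB and 42738 to 69725 CPM in CM+FB+MF, and 4 of its 26 tested genes were called higher. CM+FB+MF replicate 4 had the lowest total count of the cardiomyocyte libraries and the highest sum for the histone genes, for the other RNAs without a poly(A) tail and for the macrophage markers. Without it 29 members were called higher. Of 19 cardiomyocyte markers 2 were called higher and 4 lower, and of 14 fibroblast markers 1 was called. The part of any of these in the histone result was not tested.

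In Biowire macrophages the summed level was lower with other cells in the tissue. These contrasts add other cells to macrophages at day 14, so they answer a different question from the cardiomyocyte comparison. Summed over the members, the MF libraries had 305, 333 and 328 CPM, the FB+MF libraries 267, 233 and 268 CPM, and the CM+FB+MF libraries 217, 191 and 198 CPM. The 3 groups did not overlap, and their means were 322 ± 15.1, 256 ± 20.1 and 202 ± 13.9 CPM (SD, n = 3). The other RNAs without a poly(A) tail summed to 44147, 47042 and 45500 CPM in MF, to 27876, 38180 and 38601 CPM in FB+MF and to 47932, 62338 and 42480 CPM in CM+FB+MF. FB+MF was thus below MF, with no overlap, in this sum as in that of the histone genes, with ratios of group means of 0.766 and 0.795, while CM+FB+MF overlapped MF in this sum. The part of this in the histone result was not tested. The 3 comparisons among these groups share samples in pairs.

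CM+FB+MF macrophages were set against MF alone to ask what differs in macrophages that share the tissue with the other cells. Of 41 tested members 12 were called lower and 0 higher, where 37.6% of all 13952 genes tested were called, 19.8% lower and 17.8% higher. That share of called members lies under the background, and all of the calls lay on the lower side. The median log2 fold change over the 41 was -0.80, and 30 of the 41 were negative. The calls fell on 8 of 13 tested H2B genes, 2 of 10 H2A genes, 2 of 4 H1 genes, 0 of 5 H3 genes and 0 of 9 H4 genes. The median log2 fold changes of these classes were -1.41, -0.58, -0.61, -0.71 and -0.21. All 5 H3 values were negative although none was called. By cluster they were 8 of 34 HIST1 genes, 3 of 4 HIST2 genes, 1 of 2 HIST3 genes and 0 of 1 HIST4 gene.

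HIST1H2BC had the smallest p. Its level was 26.6, 31.0 and 37.8 CPM in MF, 24.8, 17.6 and 19.5 CPM in FB+MF and 17.2, 15.3 and 13.6 CPM in CM+FB+MF. The groups MF and CM+FB+MF were apart, with a log2 fold change of -1.04 ± 0.19 (SE; adjusted p = 0.000653). HIST1H1E had 53.4, 72.9 and 65.7 CPM in MF, 49.2, 45.6 and 53.5 CPM in FB+MF and 38.5, 30.2 and 41.8 CPM in CM+FB+MF. The CM+FB+MF libraries were the 3 lowest of the 9 (log2 fold change from MF -0.80 ± 0.15, adjusted p = 0.000784). HIST3H2A, an H2A gene of the small HIST3 cluster, had 9.32, 11.6 and 10.6 CPM in MF, 6.76, 4.87 and 5.32 CPM in FB+MF and 3.10, 3.73 and 4.87 CPM in CM+FB+MF. All 3 MF libraries lay above all others (log2 fold change -1.44 ± 0.30, adjusted p = 0.00196).

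HIST2H2BF, an H2B gene, had 5.69, 8.20 and 6.60 CPM in MF, 6.68, 3.19 and 4.6 CPM in FB+MF and 1.08, 2.49 and 2.00 CPM in CM+FB+MF. The CM+FB+MF libraries were again the 3 lowest (log2 fold change -1.88 ± 0.43, adjusted p = 0.00378). HIST1H2BG had 4.48, 3.22 and 3.79 CPM in MF, 1.69, 1.87 and 2.53 CPM in FB+MF and 0.943, 1.12 and 0.286 CPM in CM+FB+MF. The CM+FB+MF values rest on 7, 9 and 2 counts (log2 fold change -2.26 ± 0.59, adjusted p = 0.00821). HIST1H2BD, which has a polyadenylated form, had 13.2, 13.8 and 13.8 CPM in MF, 8.77, 9.65 and 9.11 CPM in FB+MF and 7.81, 7.83 and 7.88 CPM in CM+FB+MF. The spread within each group was small (log2 fold change -0.80 ± 0.21, adjusted p = 0.00937). These 6 members were called under every setting tried.

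The other 6 called members each lost the call without some single library. HIST2H2BE had 10.9, 10.5 and 9.90 CPM in MF, 7.0, 6.09 and 6.58 CPM in FB+MF and 6.60, 3.48 and 1.58 CPM in CM+FB+MF, and was not called without CM+FB+MF replicate 2 (log2 fold change -1.41 ± 0.41, adjusted p = 0.0139). HIST2H2AC, its neighbour, had 13.3, 19.6 and 16.3 CPM in MF and 10.4, 8.58 and 4.87 CPM in CM+FB+MF, and was not called without MF replicate 2 (-1.04 ± 0.28, adjusted p = 0.0102). HIST1H1B had 9.20, 3.15 and 2.62 CPM in MF and 0.674, 0.746 and 0.859 CPM in CM+FB+MF, and was not called without MF replicate 1, its highest library (-2.71 ± 0.77, adjusted p = 0.0132). HIST1H2BN was not called without MF replicate 2 (-1.90 ± 0.55, adjusted p = 0.0146). HIST1H2BK (-0.56 ± 0.18, adjusted p = 0.0236) was not called without MF replicate 2 or CM+FB+MF replicate 2 or 3, and HIST1H2BE (-2.10 ± 0.70, adjusted p = 0.0304) was lost without MF replicate 2 or 3 or CM+FB+MF replicate 2 or 3. HIST1H2BE had 1.69, 2.12 and 3.79 CPM in MF, 2.66, 3.56 and 1.17 CPM in FB+MF and 0.943, 0.497 and 0.286 CPM in CM+FB+MF.

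Some abundant members were not called. HIST1H1C had 22.4, 22 and 26.5 CPM in MF, 14.8, 16.5 and 24.9 CPM in FB+MF and 18.2, 17.9 and 17.2 CPM in CM+FB+MF. MF and CM+FB+MF did not overlap, but the log2 fold change of -0.41 ± 0.20 missed the threshold (adjusted p = 0.115). HIST1H2AC had 11.1, 8.93 and 10.7 CPM in MF and 7.27, 7.71 and 10.0 CPM in CM+FB+MF (-0.30 ± 0.26, adjusted p = 0.387). HIST1H4E had 12.2, 5.34 and 6.89 CPM in MF and 12.4, 6.34 and 5.87 CPM in CM+FB+MF, with a log2 fold change of 0.01 ± 0.39 (adjusted p = 0.983). The groups of HIST1H2AC and HIST1H4E overlapped. HIST4H4, the single H4 gene of its cluster, had 0.726, 2.27 and 1.55 CPM in MF and 3.37, 2.11 and 2.0 CPM in CM+FB+MF (0.70 ± 0.60, adjusted p = 0.387), overlapping values on the other side of 0. HIST1H1A had 0 counts in every MF and FB+MF library and 1, 4 and 11 counts in CM+FB+MF, too few to be tested.

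Between FB+MF and MF macrophages 0 of 41 members were called with edgeR, where 6.16% of genes were called (4.03% higher, 2.14% lower). At an unadjusted p under 0.05 there were 5 members with edgeR, where 17.8% of all genes were, and 6 with DESeq2, where 13.4% were. The median log2 fold change was -0.34, and 32 of 41 were negative. Between CM+FB+MF and FB+MF macrophages 4 of 41 were called lower and 0 higher, where 35.5% of genes were called, 19.1% lower and 16.4% higher. These were HIST1H2BK, HIST2H2BF, HIST1H1E and HIST1H2BE. HIST1H2BK had 43.3, 56.8 and 47.9 CPM in MF, 65.2, 42.6 and 57.7 CPM in FB+MF and 36.9, 27.9 and 36.2 CPM in CM+FB+MF. All 3 CM+FB+MF libraries lay below the other 6 (log2 fold change from FB+MF -0.75 ± 0.18, adjusted p = 0.00478). The changes from FB+MF were -1.42 ± 0.43 for HIST2H2BF (adjusted p = 0.0218), -0.46 ± 0.15 for HIST1H1E (adjusted p = 0.0268) and -2.10 ± 0.70 for HIST1H2BE (adjusted p = 0.0321). HIST1H2BK alone of these was called under every setting tried, and the count fell to 2 without CM+FB+MF replicate 2 and to 1 without FB+MF replicate 1.

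The related lists did not move as a block in CM+FB+MF against MF macrophages. In that comparison 37.6% of all genes tested were called, 17.8% higher and 19.8% lower. Of 17 DNA replication genes 2 were called lower, MCM6 (-1.21 ± 0.18) and MCM3 (-0.47 ± 0.15), both subunits of the replicative helicase, and 0 higher, and their sum was 306 ± 11.8 CPM in MF and 264 ± 17.6 CPM in CM+FB+MF (SD, n = 3). Of 16 mitosis genes 2 were called higher, TOP2A and MKI67 (2.66 ± 0.86, adjusted p = 0.0248), and 1 lower, CENPF. SLBP fell by 0.45 ± 0.13 on the log2 scale (adjusted p = 0.0146), and UPF1, a helicase of histone mRNA decay, rose (0.53 ± 0.11). Of 10 histone variants outside the clusters 3 rose, H3F3B (1.06 ± 0.11, adjusted p = 3.79e-06), H1F0 (1.03 ± 0.11) and H1FX (0.60), and 2 fell, H2AFY2 (-2.59 ± 0.35) and H2AFJ (-0.73). Their sum was 999 ± 77.3 CPM in MF and 1215 ± 49.7 CPM in CM+FB+MF. H2AFZ (0.27 ± 0.17) and H3F3A (0.36 ± 0.37) were not called, nor was PCNA among the replication genes (-0.04 ± 0.21). Of 12 chaperones 4 rose, led by NASP, a chaperone of H1, H3 and H4 (1.56 ± 0.14), and 1 fell.

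Other measures also differed between these macrophage groups. Of 18 tested cardiomyocyte markers 17 were called higher, with a sum of 64.9 ± 15.2 CPM in MF, where TNNT2 was at 0, and 1273, 3018 and 2133 CPM in the CM+FB+MF libraries. Of 20 macrophage markers 16 were called higher and 2 lower, with CD14 at 3.07 ± 0.17 and PTPRC, the CD45 gene, at 0.77 ± 0.10 on the log2 scale. Both proteins were used for sorting. Of 27 other RNAs without a poly(A) tail 8 were called higher, with sums of 45563 ± 1449 CPM in MF and 50917 ± 10260 CPM in CM+FB+MF (SD, n = 3). The part of these in the histone result was not tested.

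In digested control macrophages no difference between the groups was called for any member with edgeR. The summed level was 300, 338 and 359 CPM in MF, 358, 323 and 365 CPM in FB+MF and 328, 386 and 368 CPM in CM+FB+MF, and the 3 groups overlapped. Of 47 tested members 0 were called between FB+MF and MF, where 1.6% of 12960 genes were called, all higher and 0% lower. Likewise 0 were called between CM+FB+MF and MF, where 2.69% of genes were called, all higher, and 0 between CM+FB+MF and FB+MF, where 0.239% were. At an unadjusted p under 0.05 there were 0, 4 and 2 members with edgeR, where 5.19%, 6.37% and 2.48% of all genes were, and 0, 4 and 1 with DESeq2, where 3.45%, 4.95% and 1.27% were. The median log2 fold changes were 0.11, 0.20 and 0.08.

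HIST1H1E had 48.9, 54.5 and 59.8 CPM in digested MF, 65.9, 52.6 and 65.5 CPM in FB+MF and 56.5, 62.5 and 64.7 CPM in CM+FB+MF. The groups overlapped, and the log2 fold change of CM+FB+MF from MF was 0.17 ± 0.11 (adjusted p = 0.999). HIST1H2BC had 14.9, 19.6 and 18.5 CPM in MF and 17.0, 22.6 and 17.9 CPM in CM+FB+MF, a log2 fold change of 0.12 ± 0.17. HIST1H2BK had 59.3, 61.2 and 57.9 CPM in MF and 51.6, 61.3 and 61.8 CPM in CM+FB+MF, a log2 fold change of -0.03 ± 0.09. Neither of these 2 genes had groups that were apart. HIST1H1C had 25.5, 30.8 and 28.5 CPM in MF and 25.3, 31.7 and 33.0 CPM in CM+FB+MF (0.08 ± 0.13). HIST2H2AC had 18.6, 17.5 and 18.3 CPM in MF and 19.2, 24.4 and 20.2 CPM in CM+FB+MF, groups that did not overlap, with a log2 fold change of 0.23 ± 0.12 (adjusted p = 0.941). HIST1H4E had 15.0, 16.6 and 18 CPM in MF and 16.9, 17.8 and 16.9 CPM in CM+FB+MF (0.06 ± 0.11). The largest HIST2H2BE value was 14.2 CPM, in MF, and the smallest 11.2 CPM, in FB+MF, and HIST1H2AE, an H2A gene, lay between 9.13 and 15.1 CPM in the 9 libraries. HIST2H2BF, at -0.04 ± 0.25, and HIST3H2A, at 0.20 ± 0.18, were not called either. MKI67 (0.06 ± 0.08), PCNA (0.12 ± 0.12), H2AFZ (0.02 ± 0.10), SLBP (0.02 ± 0.06), CD14 (0.02 ± 0.06) and PTPRC (-0.03 ± 0.06) were likewise not called between these groups. The cardiomyocyte markers summed to 45.3 ± 8.42 CPM in digested MF and 373 ± 108 CPM in digested CM+FB+MF, and the fibroblast markers to 285 ± 12.1 and 2118 ± 1375 CPM (SD, n = 3).

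Whether the macrophage difference was the same in Biowires and in digested controls was tested directly, as Biowire difference minus digested difference, in 1 fit of 18 libraries on the 17919 genes in both tables. For CM+FB+MF against MF, 13 of 50 tested members were called lower in the Biowires and 0 higher, where 31.2% of 14381 genes were called, 16.8% lower and 14.4% higher. The median over the 50 was -0.92. The smallest p belonged to HIST3H2A, where the difference was -1.63 ± 0.32 on the log2 scale (adjusted p = 0.000506), followed by HIST1H1E at -0.96 ± 0.19 (adjusted p = 0.000515), HIST1H2BC at -1.15 ± 0.26 (adjusted p = 0.00222) and HIST1H2BN at -1.93 ± 0.44 (adjusted p = 0.0023). HIST1H2BN had 2.66, 4.17 and 4.08 CPM in Biowire MF and 0.539, 1.37 and 1.00 CPM in Biowire CM+FB+MF. In the digested controls it had 4.85, 4.95 and 4.93 CPM in MF and 4.88, 5.13 and 5.18 CPM in CM+FB+MF, so that the groups were apart in the Biowires and overlapped in the controls.

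HIST2H2AC (-1.27 ± 0.30), HIST1H2BG (-2.57 ± 0.65), HIST2H2BF (-1.83 ± 0.48), HIST2H2BE (-1.37 ± 0.39), HIST1H1B (-2.81 ± 0.80) and HIST1H2BD (-0.88 ± 0.26) were also called under every setting tried, which makes 10 of the 13. The last 3 were HIST1H3I (-2.23 ± 0.72), HIST1H3E (-1.82 ± 0.59) and HIST1H2BE (-2.02 ± 0.66), each lost without some single library. HIST1H3E, an H3 gene, had 5.20, 4.90 and 3.40 CPM in Biowire MF and 1.48, 4.10 and 2.72 CPM in Biowire CM+FB+MF. In the digested controls it had 0.47, 0.865 and 1.18 CPM in MF and 1.45, 2.04 and 2.04 CPM in CM+FB+MF. The Biowire groups overlapped, and the digested groups did not, with CM+FB+MF the higher. HIST1H2BK, at -0.52 ± 0.21, was not called (adjusted p = 0.0672). SLBP was called lower in this difference as well (-0.46 ± 0.14, adjusted p = 0.0166).

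**Figure D4:**
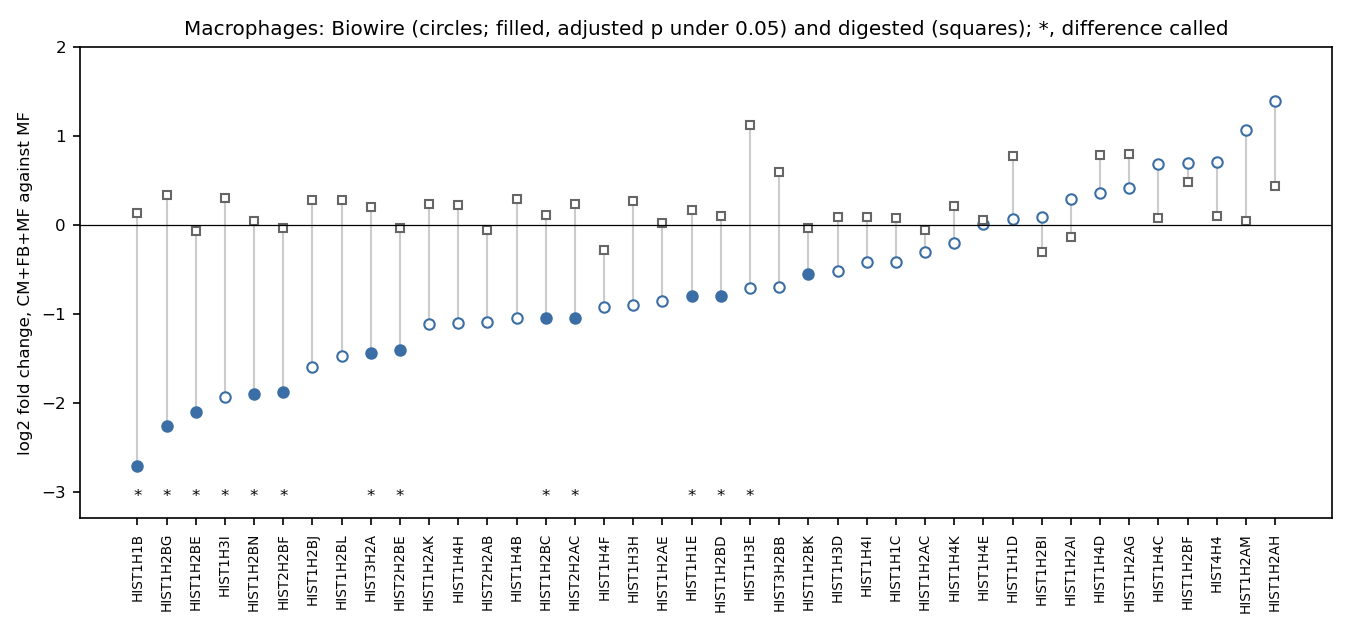
Log2 fold change of CM+FB+MF against MF in Biowire macrophages (circles, filled where the adjusted p is under 0.05) and in digested macrophages (squares) for the 40 members tested in both, ordered by the Biowire value. Asterisks mark members whose difference between the settings was called, all of them lower in Biowires. HIST1H1B is lowest in the Biowires at -2.71, and no digested value was called.

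For FB+MF against MF the difference between Biowires and controls was called for 0 of 50 members with edgeR, where 4.84% of genes were called (2.72% higher, 2.12% lower). At an unadjusted p under 0.05 there were 4 members with edgeR, where 15.6% of all genes were, and 6 with DESeq2, where 13.1% were. The median over the 50 was -0.51. For CM+FB+MF against FB+MF, 3 of 50 were called lower and 1 higher, where 28.4% of genes were called, 15.1% lower and 13.2% higher. The members called lower were HIST1H2BK (-0.78 ± 0.21, adjusted p = 0.00866), HIST2H2BF (-1.61 ± 0.49, adjusted p = 0.0177) and HIST1H2BN (-1.24 ± 0.45, adjusted p = 0.0449), and HIST1H2BK alone was called under every setting tried. HIST1H2BN was called in 5 of 17 alternative settings and lost the call with DESeq2 and with no filter. HIST1H2AJ was the member called higher (adjusted p = 0.0349). It had 0 counts in all 3 Biowire FB+MF libraries and 0, 5 and 5 counts in Biowire CM+FB+MF, so its fitted value of 4.76 ± 1.61 is no measure of size, and the call was lost when only the compared groups were fitted.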

How the data were processed

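Total RNA of 26 sorted samples was sequenced. The values used are raw counts of reads per gene, deposited by the authors in 3 tables (Biowire macrophages 19206 genes, digested macrophages 18771, cardiomyocytes 21991). STAR 2.7.9a, HTSeq 0.11.0, DESeq2, R 4.3.2 and hg19 are listed per the submitters' processing notes. No source used here gives the strand setting of the counting, although the kit keeps strand, per the labels' protocols. Column names recur between tables, so each column was taken to the group whose description names its table, with the replicate number that ends its name. The deposited normalized tables were not used.

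Counts were fitted with edgeR 4.0.16 in R 4.3.3 (TMM, filterByExpr, quasi-likelihood F test, two-sided, Benjamini-Hochberg over all genes tested, called at 0.05), with all groups of a table in a fit. There were 10 comparisons, 3 of them differences between the Biowire and digested settings. CPM of the library total describe levels and were given no test. The scripts were tested on simulated data. No pair of replicates looked like a repeat of the same library (chi-square over its degrees of freedom was 2.39 or more). The alternatives were RLE size factors, no filter, DESeq2 1.42.0, only the compared groups, a replicate block and leaving out single libraries, and for summed levels TMM scaling and the sum without HIST1H1E.

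The members and the gene lists (histone variants outside the clusters, histone mRNA transcription and processing, chaperones, DNA replication, mitosis, other RNAs without a poly(A) tail, described poly(A) forms, and markers of 3 cell types) were chosen with earlier results of these data known. Members named with values in every library are the 8 of highest mean CPM in each table and the 6 called with the smallest p in each comparison and direction. Up to 3 called genes a list are named, and SLBP, MKI67, PCNA, H3F3A, H3F3B, H2AFZ, CD14, PTPRC and TNNT2 where tested. Further members are named to account for each call and were picked after their values were seen. All 63 symbols were matched to RefSeq names through synonyms, 5 of them by elimination. Sequences and coordinates are from GRCh38 references, not from the authors' build.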

Additional observations from a re-analysis of the deposited data

Results flagged for a closer look

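In groups of 4 libraries, a library was looked at again where it stood apart from its 3 fellows by more than Dixon's 95% critical value. Of 76 such groups 4 did, where chance gives about 1 in 20, here 3.8. Among CM+FB cardiomyocytes, replicate 3 was the lowest for HIST2H2AC (38.4 CPM) and for the summed H2A genes (151 CPM), and replicate 1 was the highest for HIST1H2BN (6.48 CPM). Among CM+FB+MF cardiomyocytes, replicate 3 was the lowest for HIST1H2BN (6.01 CPM).

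The difference of CM+FB+MF from MF macrophages itself differed between Biowires and digested controls (Biowire minus digested, log2 scale) for HIST1H1B (-2.81), HIST1H1E (-0.96), HIST1H2BC (-1.15), HIST1H2BD (-0.88), HIST1H2BE (-2.02), HIST1H2BG (-2.57), HIST1H2BN (-1.93), HIST2H2AC (-1.27), HIST2H2BE (-1.37), HIST2H2BF (-1.83) and HIST3H2A (-1.63). The difference of CM+FB+MF from FB+MF did so for HIST1H2BK (-0.78), HIST1H2BN (-1.24), HIST2H2BF (-1.61) and HIST1H2AJ (4.76), the last on 10 Biowire counts. Of 17 alternative settings, HIST1H2BN was called in 5 and HIST1H2AJ in 7.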

How the results depend on the processing

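Over the named members 2435 values under an alternative kept their side of the threshold, 68 lost the call and 20 gained it. Of the values called in the main fit 0 reversed direction. Values called in neither fit were counted as kept even where their direction changed. Some counts of called members moved by more than 1.5 times. For the Biowire-digested difference of CM+FB+MF from MF, 1 member was called higher with DESeq2 and 1 with the replicate block, and 0 to 2 without single libraries. For that of CM+FB+MF from FB+MF, 2 were called higher with no filter, 2 with DESeq2 and 0 with only the compared groups fitted, and without single libraries 0 to 2 were called higher and 1 to 5 lower. Without single libraries, 0 to 1 members were called lower in Biowire FB+MF against MF and 1 to 5 in CM+FB+MF against FB+MF, and 0 to 1 higher in digested CM+FB+MF against MF. Other counts stayed within 1.5 times when single libraries were left out: 9 to 13 lower in Biowire CM+FB+MF against MF, 11 to 16 lower in its Biowire-digested difference and 28 to 41 higher in cardiomyocytes. Without HIST1H1E the summed level was 258, 206 and 165 CPM in Biowire MF, FB+MF and CM+FB+MF, 278, 287 and 299 CPM in the digested groups and 665 CPM in CM+FB cardiomyocytes, so the order of the groups stayed. The cause of the other moves was not tested. Same-numbered replicates deviated together in few pairs (correlation over 0.1 in 2 of 9, 2 of 9 and 1 of 4). In Biowire macrophages, however, all 9 correlations were positive (0.003 to 0.229). Both signs occurred in digested macrophages (-0.205 to 0.298) and in cardiomyocytes (-0.138 to 0.186). Whether the numbers pair the samples is therefore not settled. With the replicate number as a block, 39 cardiomyocyte members were called, HIST1H4L no longer among them, over 895 genes higher and 785 lower. Many members lie under a few CPM in macrophages, and whether low counts set the number of calls there was not tested.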
